A study of Mus musculus with 8 samples.

Results

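The genes described here are the solute carrier (Slc) genes that were expressed in sorted nephron progenitors of the mouse kidney, 170 genes of the 24539 in the deposited table. They were chosen by symbol (Slc, a family number, the letter a and a member number) and by a sum of at least 200 raw read counts over all 8 libraries, leaving out Slc2a1 and Slc15a2. Of 347 symbols of that form, 175 fell below the minimum, and 34 of those had 0 counts in every library. The members were therefore chosen on their total counts, which are described below and not tested. Nearest to the threshold, Slc16a10 with 191 counts, Slc16a11 with 194 and Slc2a3 with 197 lay just outside, and Slc30a3 with 220, Slc2a5 with 228 and Slc25a47 with 244 lay just inside. All 170 members passed the filter on low counts, which kept 13459 genes for testing. By name 165 of them are counted as carriers, and these include Slc3a2, the heavy chain of an exchanger. The other 5 share only the name: the pseudogene Slc2a4rg-ps, the adaptor Slc4a1ap, the opposite-strand gene Slc7a6os, and the scaffold proteins Slc9a3r1 and Slc9a3r2.

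The series asked how the dose of Smo, the membrane protein that switches on the Hedgehog pathway inside the cell, changes gene expression in these progenitors. RNA sequencing was done on cells isolated by flow sorting from kidneys at E18.5, shortly before birth, in 4 genotype groups with 2 libraries each. All groups carried Six2GFPcre, a fusion of GFP and Cre recombinase driven from Six2 in the progenitors. KO-labelled cells were Smo c/c, with conditional alleles that Cre removes, Het-labelled cells were Smo c/+, WT-labelled cells were Smo +/+, and SmoM2-labelled cells were Smo +/+ with a Rosa26 SmoM2/+ allele, from which Cre turns on an active form of Smo. The labels do not say whether replicates came from separate animals, so p-values measure the spread between these samples.

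Solute carriers are membrane proteins that move small molecules such as amino acids, sugars, nucleotides, metals and inorganic ions across membranes, by exchange, by cotransport with an ion or by facilitated diffusion. They are grouped into numbered families, and the family usually foretells the kind of substrate. In the mature kidney many of them line the tubule and return filtered solutes to the blood, whereas any dividing cell relies on those that bring in amino acids and supply the mitochondria.

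Smo itself was measured first, as the check of the labels. Its level, as counts scaled to library size (CPM), was 13.1 and 11.1 in the KO-labelled libraries, 14.4 and 23.9 in the Het-labelled, 363 and 375 in the WT-labelled, and 605 and 629 in the SmoM2-labelled. The Het-labelled libraries thus lay beside the KO-labelled ones, against their label of 1 intact allele, at a log2 difference of -4.28 from WT (SE 0.20, edgeR adjusted p = 1.55e-06). Groups are therefore named by their labels throughout. Depth ran from 4422305 to 10305398 listed counts per library and was lowest in both KO-labelled libraries. Xist, the RNA that silences an X chromosome in female cells, had 2 and 1 counts in the KO-labelled pair and 10260 and 9663 in the Het-labelled pair, while the WT- and SmoM2-labelled groups held 1 library of each kind. A stress score was taken as the mean log2 CPM of 11 early response and heat shock genes. It was 7.05 and 7.28 in the KO-labelled, 7.64 and 7.78 in the Het-labelled, 6.64 and 6.79 in the WT-labelled and 6.81 and 7.41 in the SmoM2-labelled libraries. All 10 progenitor markers were detected in the sort. Against WT, 3 of them were higher and 1 lower in KO, and 5 were higher and 0 lower in Het. They summed to 5005 and 4486 CPM in KO, 5904 and 5458 in Het, 4263 and 3790 in WT, and 4080 and 4011 in SmoM2. Their part in the results below was not tested. In bulk libraries such as these, fewer cells of a type and less RNA per cell cannot be told apart.

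Carriers of the inner mitochondrial membrane dominated the levels. On the deposited RPKM scale, which divides by gene length, the median over the 170 members was 7.83, close to the 8.32 over all tested genes, and the range was 0.478 to 341. Slc25a4, the ADP/ATP carrier of heart and muscle type, was the highest at 341 RPKM and ranged from 293 to 390 over the 8 libraries. Slc25a3, the mitochondrial phosphate carrier, followed at 254, and is named here because of its level. Slc22a17, a receptor for lipocalin 2, stood at 166, Slc39a7, which releases zinc from the endoplasmic reticulum, at 98.6, and Slc12a2, the sodium-potassium-chloride cotransporter NKCC1, at 96 with a range of 38 to 157. Slc38a2, the sodium-coupled neutral amino acid carrier SNAT2, was the highest amino acid carrier at 65.8. Processed copies of Slc25a4 exist in the mouse genome, so its level is uncertain. Together the members took 0.88% and 0.89% of the listed counts in the KO-labelled libraries, 1.00% and 1.00% in the Het-labelled, 1.01% and 1.02% in the WT-labelled and 1.06% and 1.05% in the SmoM2-labelled. The KO-labelled pair was the lowest and did not overlap with any other group. Such a share follows the most abundant members. Among these, Slc12a2 was at a log2 CPM of 8.195 and 8.409 in KO against 10.011 and 9.929 in WT. The median log2 difference of KO from WT over the members was -0.09.

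**Figure D1:**
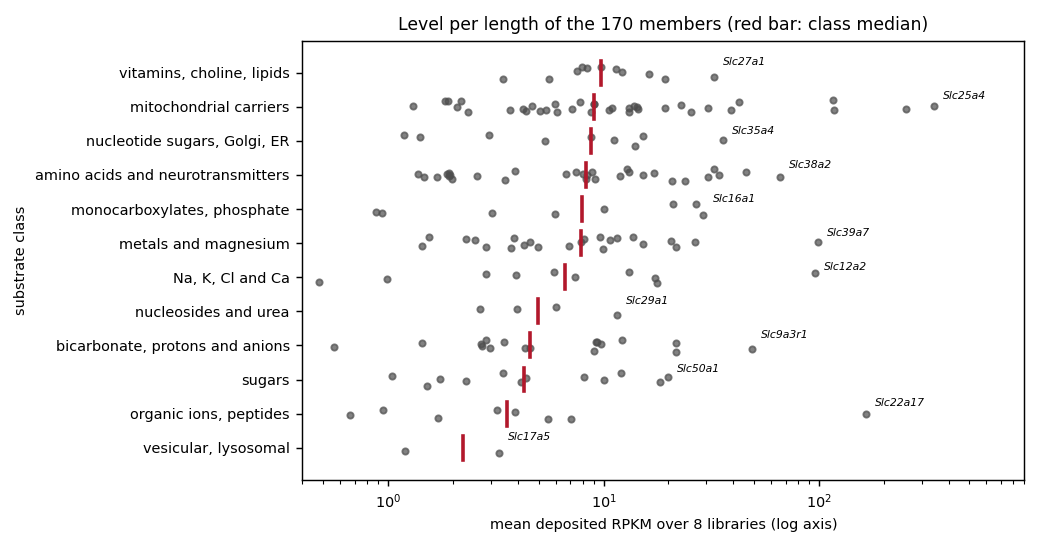
Mean deposited RPKM of each of the 170 members over the 8 libraries, on a log axis, by substrate class. Points are genes, the red bar is the class median, and the highest gene of each class is labelled. The mitochondrial class reaches 341 RPKM, while the class medians lie between 2.23 and 9.78.

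The classes follow the family numbers. The mitochondrial class was the largest with 36 members. Amino acids and neurotransmitters followed with 30 (29 carriers), metals and magnesium with 23, and bicarbonate, protons and anions with 17 (14 carriers). Sugars had 12 members, vitamins, choline, heme and fatty acids 11, sodium, potassium, chloride and calcium 10, and nucleotide sugars 9. Organic ions and drugs, and monocarboxylates with phosphate, sulfate and dicarboxylates, had 8 each. Nucleoside carriers had 4 members and vesicular carriers 2. A list of 24 carriers of the mature nephron was nearly silent. Only 7 of them passed the low count filter, 4 were at 0 everywhere, and the list summed to between 29.6 and 44 CPM in every library.

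Between the KO- and WT-labelled libraries, 42 of the 170 members (24.7%) had an adjusted p under 0.05 in edgeR's quasi-likelihood test, against 23.0% of all 13459 genes tested. They were 16 members higher in KO (9.41%, against 11.6% of all genes) and 26 lower (15.3%, against 11.4%). The median log2 difference was -0.09 over the members and 0.03 over all genes. The lower side held Slc26a7, Slc12a2, Slc36a1, Slc7a5, Slc6a6 and Slc38a4, and the higher side held Slc45a3, Slc1a5, Slc16a13 and Slc16a6. The count fell to 19 without KO replicate 1 and to 27 without WT replicate 1. Markers of differentiating nephron epithelium moved with this contrast. Of 8, 7 were higher in KO, and they summed to 1326 and 1621 CPM there against 467 and 643 in WT. Of 11 stress genes 5 were higher in KO, with sums of 4296 and 6215 CPM against 3113 and 3296 in WT, and 18 members were called with the stress score as a covariate. Of 6 erythroid markers 3 were higher, at sums of 45.2 and 13.7 CPM against 4.1 and 5.23. The stromal factor Foxd1 was at 12.8 and 3.7 CPM in KO against 197 and 171 in WT (log2 -4.48, SE 0.36, edgeR adjusted p = 4.9e-05), the 1 of 8 stromal markers to pass. The stromal list summed to 610 and 86.4 CPM in the KO-labelled pair, carried by Col1a1 and Col3a1, and to 521 and 334 in WT. The part of the cell type markers in the result was not tested.

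Between the Het- and WT-labelled libraries 59 members (34.7%) passed the same edgeR test, against 25.3% of all genes. Higher in Het were 36 members (21.2%, against 13.1%) and lower were 23 (13.5%, against 12.2%). The median log2 difference was 0.07 over the members and -0.02 over all genes. Without Het replicate 1 the count was 32 and without Het replicate 2 it was 29. The stress genes moved with this contrast, 7 of 11 being higher in Het, with sums of 8259 and 8222 CPM against 3113 and 3296 in WT. With the stress score as a covariate 1 of the 59 calls was left, that of Slc45a3. The log2 differences themselves did not all shrink with it. Those of Slc1a5 and Slc7a5 were larger, at 2.91 and -2.11, and those of Slc16a3 and Slc25a10 smaller, at 0.61 and 0.17. Their values without the covariate are given below. Since every Het-labelled library had a higher score than every other library, the score and the Het label cannot be told apart. Both comparisons use the same 2 WT-labelled libraries, so their values are set side by side below and no overlap is counted.

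Between the SmoM2- and WT-labelled libraries 1 member had an adjusted p under 0.05 (0.588%, against 0.223% of all genes). It was higher in SmoM2 (0.588%, against 0.156%), and 0 members were lower (0.0669% of all genes were). That member, Slc39a8, had 510 counts, of which 177 lay outside the SmoM2-labelled libraries. It therefore reached the minimum of 200 only through the group where it was high, and nothing is read from this count. Selection through the higher group alone also held for 1 called member in KO against WT (Slc22a21), 2 in Het against WT (Slc22a21 and Slc17a7) and 1 in KO against Het (Slc30a3), whose counts outside the higher group were 159, 155 and 160 for Slc22a21, Slc17a7 and Slc30a3. At an unadjusted p under 0.05 there were 16 members in either direction (9.41%, against 7.70% of all genes), and DESeq2 called 2 after adjustment. The median log2 difference was 0.01 over the members and 0.00 over all genes.

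KO- and Het-labelled libraries differed in 19 members (11.2%, against 9.43% of all genes). All but 1 were lower in KO: 18 members (10.6%, against 5.10%) against 1 higher (0.588%, against 4.33%). The median log2 difference was -0.20 over the members and 0.02 over all genes. The 18 had a median length of 4192 bases against 3265 over all members, and 11 members in all were called after a trend with length was removed. The count of calls fell whichever KO- or Het-labelled library was left out. Each such fit leaves 1 library in a group, and the cause of the fall was not tested. Sex by Xist differs between these groups in full. With sex as a covariate 15 members were called, of which 10 were among the 19. That covariate rests on the WT- and SmoM2-labelled pairs, where sex by Xist follows the replicate number. Of 8 differentiating nephron markers 6 were higher in KO than in Het, with sums of 1326 and 1621 CPM against 484 and 721 and a median log2 difference of 2.25, and 2 of 11 stress genes were lower. Their part was not tested. Of 8 X-linked members only Slc6a8, the creatine carrier, was called, at a log2 difference of -0.52 (SE 0.15, adjusted p = 0.0494).

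**Figure D2:**
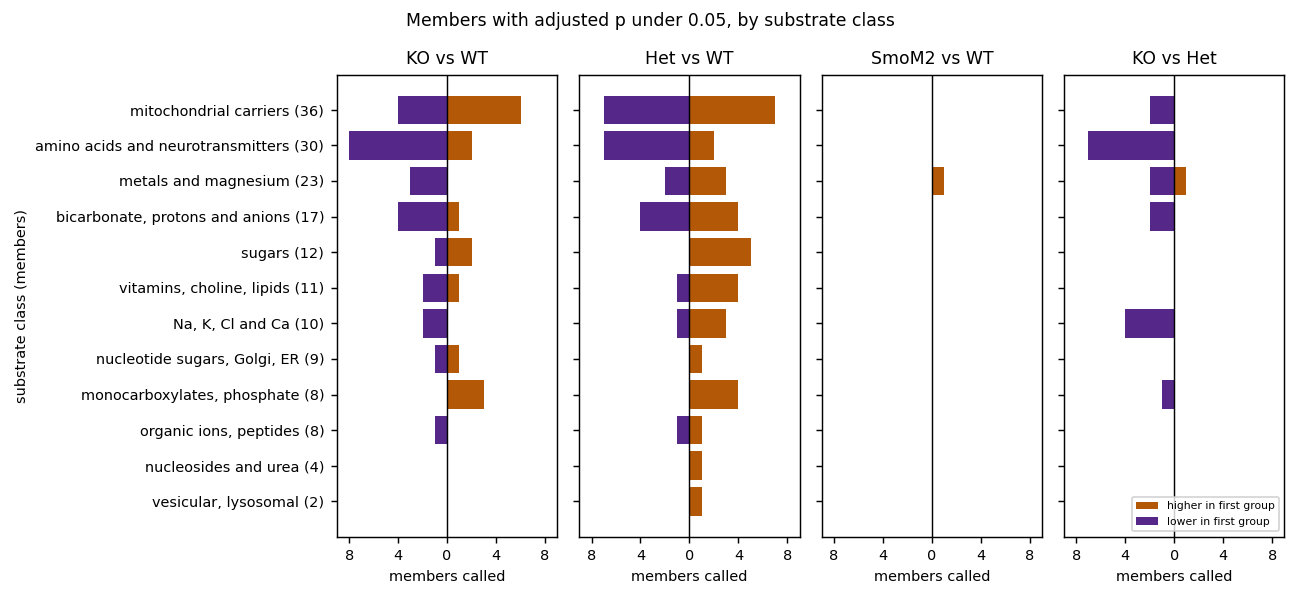
Number of members with an adjusted p under 0.05 in each substrate class, for 4 comparisons between labelled groups, with higher members in orange and lower members in purple. Amino acid carriers show 8 lower and 2 higher members in KO against WT. The monocarboxylate class shows more higher than lower members in KO and in Het against WT, and the sugar class does so in Het against WT.

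Over all 4 groups 74 members differed (43.5%, against 41.0% of all genes). In 32 members every KO- and Het-labelled library lay below every WT- and SmoM2-labelled one (18.8%, against 16.6% of all genes), and in 35 every one lay above (20.6%, against 16.5%). The means stood in the order KO, Het, WT, SmoM2 from low to high in 24 members (14.1%, against 10.8%) and in the opposite order in 8 (4.71%, against 9.91%).

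**Figure D3:**
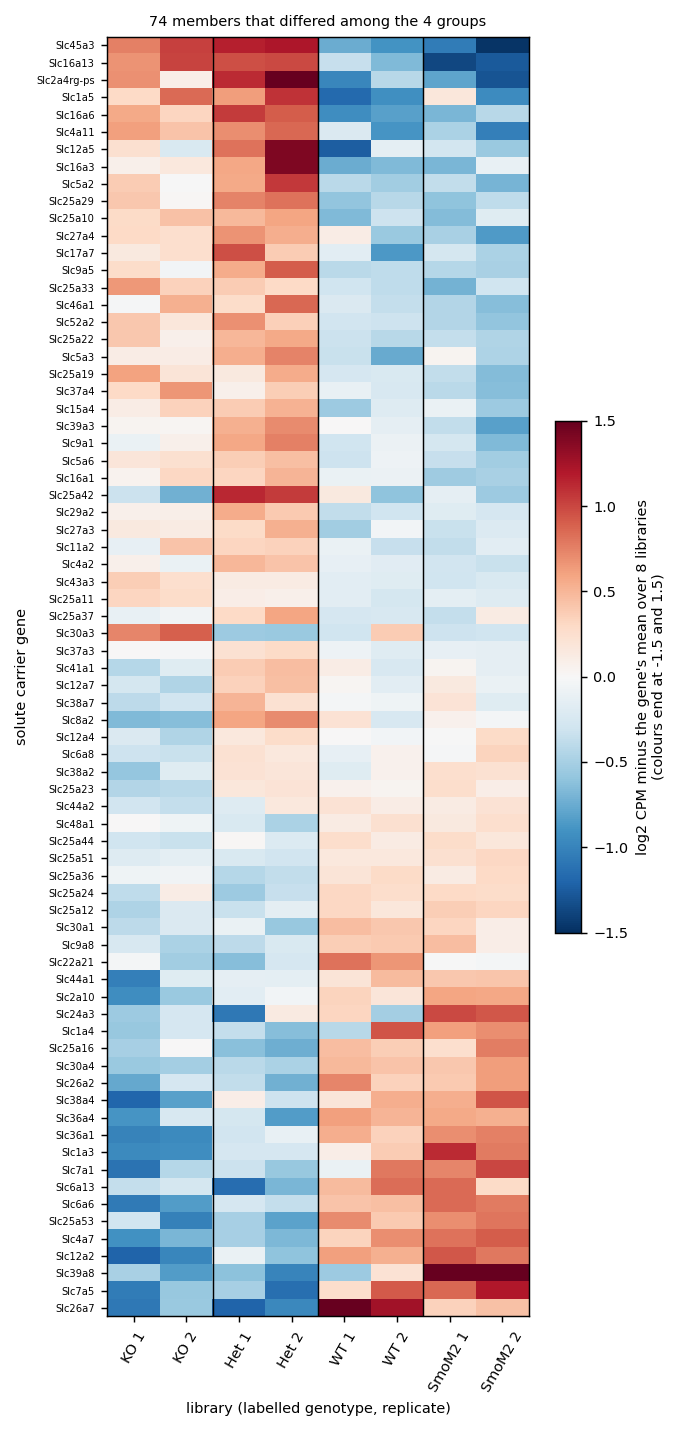
Log2 CPM of the 74 members that differed over the 4 groups, each minus its own mean over the 8 libraries, with columns for the libraries by label and colours ending at 1.5 in both directions. Slc45a3 and Slc16a6 lie above their mean in the KO- and Het-labelled columns, and Slc12a2 lies below its mean there.

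Amino acid carriers had more members called lower than higher in the KO-labelled libraries. Of 30 members, 29 of them carriers, 8 were lower and 2 higher against WT, where 11.4% of all genes were lower and 11.6% higher. Against Het 7 were lower and 0 higher, where 5.10% of all genes were lower and 4.33% higher. In Het against WT 7 were lower and 2 higher, where 12.2% of all genes were lower and 13.1% higher. The same shares of all genes apply to the class counts below. The class summed to 1457 and 1697 CPM in KO, 2033 and 1985 in Het, 1994 and 2516 in WT, and 2614 and 2784 in SmoM2, so the KO-labelled pair was below all others.

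Slc6a6, the taurine carrier, gave 78.2 and 90.8 CPM in the KO-labelled libraries, 136 and 127 in the Het-labelled, 219 and 223 in the WT-labelled and 292 and 279 in the SmoM2-labelled. The 4 groups lay in steps without overlap. The level was 2.61-fold lower in KO than in WT (log2 -1.38, SE 0.12, edgeR adjusted p = 8.3e-05) and 1.67-fold lower in Het (log2 -0.74, SE 0.12, adjusted p = 0.0016). In KO against Het the log2 difference of -0.64 (adjusted p = 0.0127) was not called without KO replicate 1 or without Het replicate 1 (adjusted p = 0.0649 and 0.121). SmoM2 against WT gave 0.37 (adjusted p = 0.355, 95% interval 0.12 to 0.63 before adjustment).

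Slc36a1, the proton-coupled carrier PAT1 that exports small neutral amino acids from lysosomes, showed the same order. Its levels were 19.5 and 20 CPM in KO, 32.1 and 36.3 in Het, 57.3 and 49.9 in WT, and 63.7 and 66.6 in SmoM2. No group overlapped with the next. The log2 difference was -1.44 in KO against WT (SE 0.15, edgeR adjusted p = 0.000197) and -0.65 in Het against WT (SE 0.14, adjusted p = 0.0067), the latter not called without Het replicate 1 (adjusted p = 0.0647). In KO against Het it was -0.79 (adjusted p = 0.0135), and 0.0621, 0.084 and 0.0757 without KO replicate 1, Het replicate 1 and Het replicate 2.

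Slc1a3, the glutamate and aspartate carrier GLAST, gave 30.6 and 31.1 CPM in KO, 50 and 49.8 in Het, 63.9 and 77.3 in WT, and 130 and 103 in SmoM2. Here, too, the groups were in order and separate. KO was 2.29-fold below WT (log2 -1.19, SE 0.16, edgeR adjusted p = 0.000696). Het was 1.41-fold below WT (adjusted p = 0.0307), a call that did not hold without Het replicate 1, Het replicate 2 or WT replicate 2 (adjusted p = 0.114, 0.13 and 0.166). KO against Het (log2 -0.69, adjusted p = 0.026) was not called without any 1 of the 4 KO- and Het-labelled libraries (adjusted p between 0.0826 and 0.144) or with sex as a covariate (0.065). The log2 difference of 0.72 between SmoM2 and WT had an adjusted p of 0.0984.

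Slc38a4, an imprinted carrier of neutral amino acids, had 32.8 and 42.7 CPM in KO, 80.3 and 60.6 in Het, 85 and 110 in WT, and 110 and 145 in SmoM2. The KO-labelled pair stood clear of the rest, and the Het-labelled pair lay just below WT. It was 2.58-fold below WT (log2 -1.37, SE 0.21, edgeR adjusted p = 0.00141), while Het against WT gave -0.46 (adjusted p = 0.102). KO against Het, at -0.90 (adjusted p = 0.0257), was not called without KO replicate 1 or Het replicate 1 (adjusted p = 0.134 and 0.187), and with sex as a covariate it was -0.52 (adjusted p = 0.177).

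The large neutral amino acid exchanger is a pair of proteins, of which the transport subunit passed and the heavy chain did not. Slc7a5, the transport subunit LAT1, gave 56.9 and 79.5 CPM in KO, 83.5 and 53.7 in Het, 142 and 224 in WT, and 214 and 271 in SmoM2. The KO- and Het-labelled libraries overlapped with each other and lay below all others, at log2 differences from WT of -1.42 (SE 0.26, edgeR adjusted p = 0.00338) and -1.41 (SE 0.25, adjusted p = 0.00302). Slc3a2, the heavy chain CD98 that carries LAT1 to the surface, was at 105 and 130 CPM in KO, 129 and 105 in Het, 112 and 148 in WT, and 112 and 150 in SmoM2. Its groups overlapped, and the log2 difference of KO from WT was -0.15 (95% interval -0.56 to 0.26, adjusted p = 0.596). Slc7a1, the cationic amino acid carrier CAT1, was lower in KO at a log2 difference of -1.14 (adjusted p = 0.014) and in Het at -0.85 (adjusted p = 0.0389). WT replicate 2 was the higher WT library for Slc7a1, with 180 against 97.2 CPM, and without it the differences were -0.66 and -0.36 (adjusted p = 0.0796 and 0.315). Without KO replicate 1 the first was -0.84 (adjusted p = 0.123), and without Het replicate 1 or 2 the second had an adjusted p of 0.0836 or 0.182. With the length trend removed neither was called (adjusted p = 0.0607 and 0.0659), and DESeq2 did not call the second (adjusted p = 0.127).

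Slc1a5, the glutamine exchanger ASCT2, went the other way. It gave 29.4 and 43.1 CPM in KO, 36.8 and 50.8 in Het, 10.4 and 12.4 in WT, and 26.9 and 12.3 in SmoM2. All 4 KO- and Het-labelled libraries lay above the others, although 1 SmoM2-labelled library came close. The level was 3.18-fold higher in KO than in WT (log2 1.67, SE 0.33, edgeR adjusted p = 0.00572) and 3.82-fold higher in Het (log2 1.93, SE 0.33, adjusted p = 0.00212). Slc6a13, the GABA and taurine carrier GAT2, was lower in Het at 4.01 and 5.61 CPM against 12.9 and 16.6 in WT (log2 -1.62, SE 0.29, adjusted p = 0.00302). It was also called lower in KO than in WT. That call was lost without KO replicate 1, KO replicate 2 or WT replicate 2, and with the stress score as a covariate.

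A list of 10 carriers whose genes respond to amino acid shortage, 8 of them members, had genes called in both directions. In KO against WT 1 was higher (Slc1a5) and 2 were lower (Slc7a5 and Slc7a1), with a median log2 difference of -0.57 over the list and 0.03 over all genes. In Het against WT 2 were higher and 3 lower, with a median of -0.61 over the list and -0.02 over all genes, and in SmoM2 against WT 0 passed in either direction. Among the 3 was Slc7a3, which had 135 counts and is not a member (edgeR adjusted p = 0.0489). Of all genes 11.6% were higher and 11.4% lower in KO against WT, and 13.1% and 12.2% in Het against WT. Slc38a2, a known member of that response, was at 246 and 323 CPM in KO, 427 and 415 in Het, 323 and 384 in WT, and 435 and 431 in SmoM2. It passed only in KO against Het (log2 -0.57, SE 0.15, adjusted p = 0.0358; 0.179, 0.191 and 0.128 without KO replicate 1, Het replicate 1 and Het replicate 2, and 0.171 with sex as a covariate). Among 10 other genes of the response, 1 was higher in KO than in WT, the transcription factor gene Ddit3 (log2 0.85, adjusted p = 0.0355), and 0 were lower. In Het against WT 2 were higher, Ddit3 (log2 0.95, edgeR adjusted p = 0.0189) and Phgdh (log2 0.47, adjusted p = 0.0248), and 0 were lower. Phgdh was lower in KO than in Het (log2 -0.69, edgeR adjusted p = 0.0132).

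**Figure D4:**
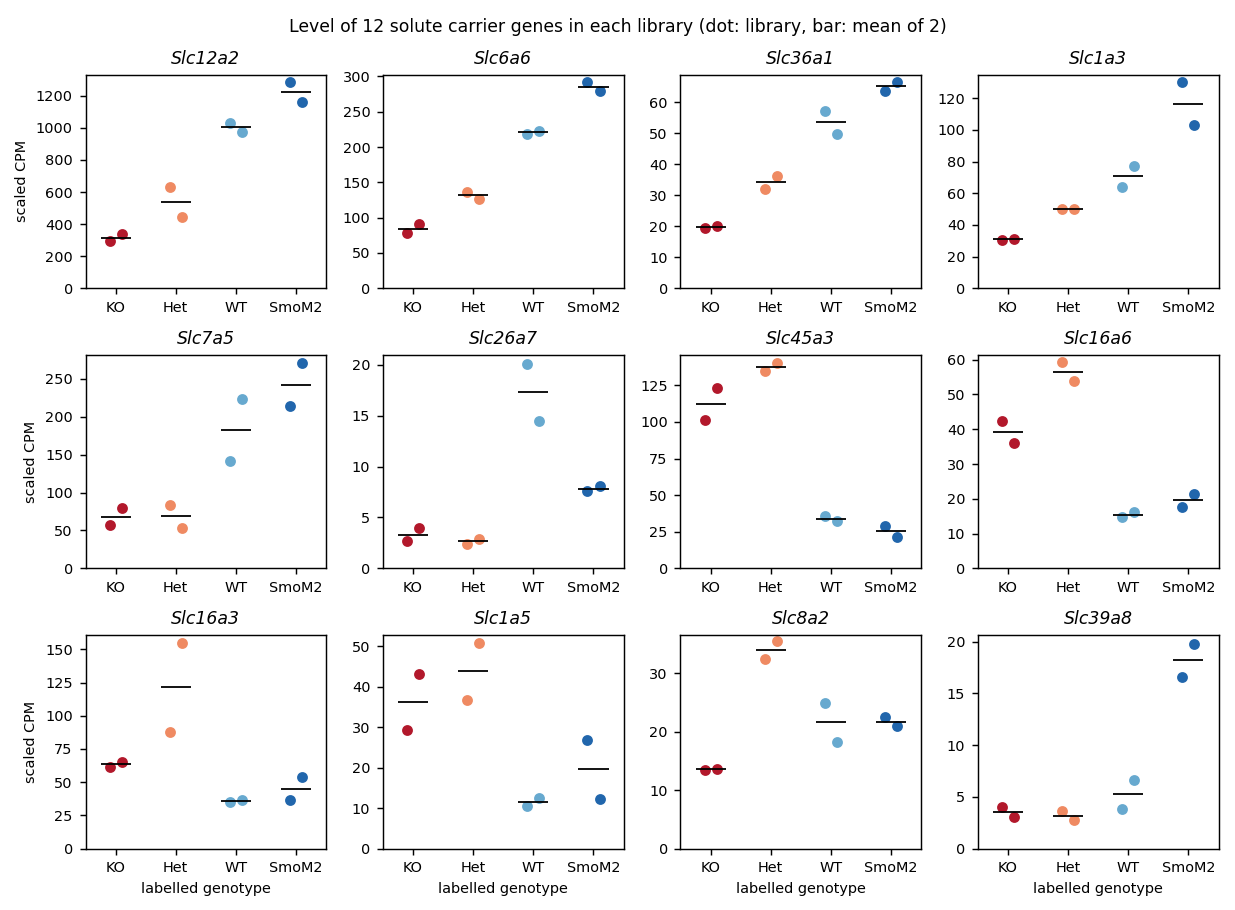
Scaled CPM in each of the 8 libraries for 12 members, grouped by label, with each point a library. Slc12a2, Slc6a6, Slc36a1 and Slc1a3 rise in steps from KO to SmoM2, Slc45a3, Slc16a6 and Slc16a3 are highest in the KO- and Het-labelled columns, and Slc39a8 is highest in the SmoM2-labelled pair.

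Slc12a2, which loads cells with chloride together with sodium and potassium, had the highest RPKM in the class of sodium, potassium, chloride and calcium carriers. Its levels were 293 and 340 CPM in KO, 629 and 443 in Het, 1031 and 974 in WT, and 1283 and 1160 in SmoM2. The groups again formed separate steps. KO was 3.17-fold below WT (log2 -1.67, SE 0.17, edgeR adjusted p = 0.000183) and Het 1.87-fold below WT (log2 -0.90, SE 0.16, adjusted p = 0.00324), while SmoM2 against WT gave 0.29 (adjusted p = 0.776, 95% interval -0.07 to 0.64). KO against Het, at -0.76 (adjusted p = 0.0198), was not called without KO replicate 1, KO replicate 2 or Het replicate 1 (adjusted p = 0.112, 0.0508 and 0.19).

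Members of the same class that move chloride or calcium outwards gave other patterns. Slc8a2, a sodium-calcium exchanger, was at 13.5 and 13.7 CPM in KO, 32.5 and 35.5 in Het, 25 and 18.2 in WT, and 22.5 and 21 in SmoM2. It was lowest in KO and highest in Het. The log2 difference was -1.32 in KO against Het (SE 0.21, edgeR adjusted p = 0.00714; 0.0658 without Het replicate 1). Against WT the differences of -0.67 in KO (adjusted p = 0.0371) and 0.65 in Het (adjusted p = 0.0258) were both lost when single libraries were left out, at adjusted p of up to 0.22 without WT replicate 1 for KO and 0.185 without WT replicate 2 for Het. The KO call was also lost without KO replicate 1 or KO replicate 2, and the Het call without Het replicate 1 or Het replicate 2. Slc12a5, the potassium-chloride cotransporter KCC2 known from neurons, was at 32.1 and 48.4 CPM in Het against 7.55 and 16.4 in WT (log2 1.75, SE 0.33, adjusted p = 0.00372). Of the 10 members of this class, 2 were lower and 0 higher in KO against WT, and 1 was lower and 3 higher in Het against WT.

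The class of bicarbonate, protons and anions had 17 members, 14 of them carriers. In KO against WT 4 were lower and 1 higher (11.4% and 11.6% of all genes). In Het against WT 4 were lower and 4 higher (12.2% and 13.1% of all genes). Slc26a7, an anion exchanger, had the largest fall of all members, with 2.66 and 3.92 CPM in KO, 2.41 and 2.89 in Het, 20.1 and 14.5 in WT, and 7.57 and 8.09 in SmoM2. The SmoM2-labelled libraries lay between. The log2 difference from WT was -2.39 in KO (SE 0.31, edgeR adjusted p = 0.00059), -2.71 in Het (SE 0.30, adjusted p = 0.000228) and -1.15 in SmoM2 (SE 0.26, adjusted p = 0.138). Slc4a7, the sodium-bicarbonate cotransporter NBCn1 that takes up base, was at 38.5 and 45.1 CPM in KO, 51.5 and 45.5 in Het, 91.9 and 118 in WT, and 128 and 136 in SmoM2. It was 2.51-fold lower in KO than in WT (log2 -1.33, SE 0.16, adjusted p = 0.000374) and 2.16-fold lower in Het (log2 -1.11, SE 0.15, adjusted p = 0.000782). Slc9a5, a sodium-proton exchanger, rose in Het at 38.1 and 48.9 CPM against 19.4 and 19.8 in WT (log2 1.15, SE 0.18, adjusted p = 0.00146). Slc4a11, at 14.6 and 12.8 CPM in KO, 15.5 and 17.5 in Het and 8.11 and 5.01 in WT, had log2 differences of 1.05 (adjusted p = 0.025) and 1.32 (adjusted p = 0.00735). The first of these was not called without KO replicate 1, KO replicate 2 or WT replicate 2 (adjusted p = 0.13, 0.0573 and 0.138).

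The monocarboxylate class had more members higher than lower in KO and in Het against WT, and the sugar class had so in Het. Of 12 members in the sugar class, 2 were higher and 1 lower in KO against WT, where 11.6% of all genes were higher and 11.4% lower. The higher ones were Slc45a3 and the pseudogene Slc2a4rg-ps, and the lower one was Slc2a10. In Het 5 were higher and 0 lower, where 13.1% of all genes were higher and 12.2% lower. The 5 were Slc45a3, Slc2a4rg-ps, Slc5a2, Slc5a3 and Slc5a6. Membership of the class follows the family number, not the substrate of each gene. The class summed to 333 and 337 CPM in KO, 394 and 429 in Het, 237 and 235 in WT, and 228 and 203 in SmoM2. Most of the difference of the KO and Het sums from WT lay in Slc45a3. Without it and the pseudogene Slc2a4rg-ps the other 10 summed to 211 and 200 CPM in KO, 231 and 251 in Het, 195 and 194 in WT, and 192 and 177 in SmoM2. The class holds 1 gene that is no carrier, Slc2a4rg-ps, which was among the genes higher in KO and in Het (log2 1.12 and 2.08, edgeR adjusted p = 0.022 and 0.000852). Its KO difference was not called without KO replicate 1 or WT replicate 1 (adjusted p = 0.185 and 0.114).

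Slc45a3, a member of the sugar class also known as prostein, lies at chr1:131962915-131982972 and gave 101 and 123 CPM in KO, 135 and 140 in Het, 35.9 and 32.1 in WT, and 29 and 21.5 in SmoM2. The KO- and Het-labelled libraries were all far above the others. The gene was 3.3-fold higher in KO than in WT (log2 1.72, SE 0.16, edgeR adjusted p = 0.000116) and 4.04-fold higher in Het (log2 2.01, SE 0.16, adjusted p = 4.67e-05), and both calls held under every alternative run. The annotation lists the gene Gm29103 over it on the same strand. Slc5a2, the sodium-glucose cotransporter SGLT2 of the mature proximal tubule, was at 13.7 and 10.4 CPM in KO, 15.6 and 22.1 in Het, 7.83 and 7.19 in WT, and 8.08 and 6.36 in SmoM2. Only Het against WT passed (log2 1.32, SE 0.25, adjusted p = 0.00435), with an adjusted p of 0.05 without Het replicate 2. BC017158 overlaps Slc5a2 on the opposite strand. The strand setting of the counting is not given, so their reads cannot be told apart. The proximal tubule marker Lrp2, the endocytic receptor megalin, was also higher in Het than in WT, at 42.8 and 36.9 CPM against 17.6 and 13, while Cubn was at 0.134 and 0.17 CPM in Het. Their part in the Slc5a2 value was not tested.

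Of the 8 members in the class of monocarboxylates, phosphate, sulfate and dicarboxylates, 3 were higher and 0 lower in KO against WT and 4 were higher and 0 lower in Het. All 4 belong to the Slc16 family. The class summed to 438 and 457 CPM in KO, 543 and 612 in Het, 386 and 399 in WT, and 342 and 384 in SmoM2. Slc16a3, the lactate exporter MCT4, gave 61.6 and 65.5 CPM in KO, 87.6 and 155 in Het, 34.9 and 36.9 in WT, and 36.2 and 54.2 in SmoM2. The Het-labelled libraries were the highest but differed from each other. The log2 difference from WT was 1.75 in Het (SE 0.25, edgeR adjusted p = 0.000908) and 0.82 in KO (SE 0.25, adjusted p = 0.0364). The KO call was lost without KO replicate 1, KO replicate 2, WT replicate 1 or WT replicate 2 (adjusted p between 0.0887 and 0.126). KO against Het, at -0.93 (adjusted p = 0.0378), was lost without KO replicate 1, KO replicate 2 or Het replicate 2, and the last of these brought it to -0.48 (adjusted p = 0.262). With sex as a covariate it was -0.59 (adjusted p = 0.292).

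Slc16a1, the lactate and pyruvate carrier MCT1, was the most abundant of the family at 29.1 RPKM. It gave 157 and 189 CPM in KO, 191 and 218 in Het, 142 and 144 in WT, and 105 and 109 in SmoM2. The groups did not overlap, although KO and Het nearly met. Only Het against WT passed (log2 0.51, SE 0.13, edgeR adjusted p = 0.0138), and it was not called without Het replicate 2, WT replicate 1 or WT replicate 2 (adjusted p = 0.147, 0.0533 and 0.0619). Emb, a chaperone that brings such carriers to the surface, was lower in KO (1.55 and 2.39 CPM) than in WT (7.64 and 14.1 CPM), at a log2 difference of -2.44 (adjusted p = 0.00399). Bsg, the more abundant chaperone basigin, was at 473 and 491 CPM in KO and at 351 and 469 in WT.

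Slc16a6, or MCT7, of the monocarboxylate carrier family, gave 42.5 and 35.9 CPM in KO, 59.2 and 53.8 in Het, 14.8 and 16.1 in WT, and 17.7 and 21.4 in SmoM2. Both low-Smo groups were above both others. The log2 difference from WT was 1.34 in KO (SE 0.17, edgeR adjusted p = 0.000531) and 1.87 in Het (SE 0.17, adjusted p = 8.43e-05). Amz2 and Arsg overlap it on the opposite strand, so this value is uncertain. Slc16a13 was at 12.2 and 15.5 CPM in KO, 15 and 15.3 in Het, 5.87 and 4.68 in WT, and 2.76 and 3 in SmoM2, with log2 differences from WT of 1.38 (SE 0.26, adjusted p = 0.0039) and 1.51 (SE 0.25, adjusted p = 0.00187).

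Promoter windows are printed for 4 members that differed in direction, Slc45a3 and the lactate carrier Slc16a3, called higher in KO and in Het against WT, Slc16a1, called higher in Het only, and Slc36a1, called lower in both. Each is the 250 bases before a RefSeq transcript start, on build GRCm38.p6, the assembly of mm10. Windows were given for 128 of the 170 members. Capitals mark matches to 1 of 4 motifs: GACGTG, the core of the hypoxia response element, GTCACGTG, an E-box with its flank, TGATGNAA, the element of ATF4 and C/EBP, and GACCACCCA, the GLI site, all searched on both strands. The motifs were chosen with results of these data known.
Slc16a3, chr11:120948817-120949066 (+): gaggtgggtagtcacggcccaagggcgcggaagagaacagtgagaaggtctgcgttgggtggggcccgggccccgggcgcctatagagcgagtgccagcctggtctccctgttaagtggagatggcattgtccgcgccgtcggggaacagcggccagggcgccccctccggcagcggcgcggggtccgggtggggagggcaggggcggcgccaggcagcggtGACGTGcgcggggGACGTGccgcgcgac
Slc16a1, chr3:104638414-104638663 (+): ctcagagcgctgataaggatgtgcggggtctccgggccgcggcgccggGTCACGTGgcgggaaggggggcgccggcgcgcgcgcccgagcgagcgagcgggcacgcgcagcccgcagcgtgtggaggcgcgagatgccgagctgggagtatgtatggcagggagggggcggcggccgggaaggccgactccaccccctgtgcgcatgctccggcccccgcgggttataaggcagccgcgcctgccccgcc
Slc45a3, chr1:131962665-131962914 (+): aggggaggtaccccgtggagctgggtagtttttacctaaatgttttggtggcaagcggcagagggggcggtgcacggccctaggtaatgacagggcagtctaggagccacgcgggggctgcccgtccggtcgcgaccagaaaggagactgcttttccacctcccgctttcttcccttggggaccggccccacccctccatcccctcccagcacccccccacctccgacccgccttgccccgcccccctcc
Slc36a1, chr11:55204090-55204339 (+): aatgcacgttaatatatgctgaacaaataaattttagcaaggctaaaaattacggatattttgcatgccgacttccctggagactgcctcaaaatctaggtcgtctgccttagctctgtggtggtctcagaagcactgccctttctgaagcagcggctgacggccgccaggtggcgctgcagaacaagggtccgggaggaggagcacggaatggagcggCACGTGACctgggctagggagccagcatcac
The Slc16a3 window holds 2 copies of GACGTG, the Slc16a1 window 1 of GTCACGTG, the Slc36a1 window 1 of the same motif on the other strand, and the Slc45a3 window none of the 4. GACGTG occurred in 6.11% of the 180 windows of members and in 5.2% of all 32851 windows. GTCACGTG occurred in 5.56% of the windows of members, those of 9 genes, and in 1.85% of all windows. TGATGNAA was in 1.67% against 3.45%. GACCACCCA was in 0.556% against 0.225%, a single window of Slc25a53, an X-linked mitochondrial carrier. These are matches of letters, counted without a test. Of the 9 genes with GTCACGTG, Slc12a7, Slc16a1, Slc25a33 and Slc37a3 were called higher in Het than in WT. Slc36a1 was called lower, and the others were not called in that comparison. There 21.2% of the members and 13.1% of all genes were called higher, and 13.5% and 12.2% lower. The call of Slc37a3 was lost with DESeq2 (adjusted p = 0.0516) and in edgeR with no filter on low counts (adjusted p = 0.0588).

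The 36 mitochondrial carriers were split in direction. In KO against WT 6 were higher and 4 lower, in Het against WT 7 were higher and 7 lower, and the class sums of 2627 and 2469 CPM in KO overlapped with the 2325 and 2526 in WT. The most abundant members did not pass. Slc25a4 was at 509 and 464 CPM in KO, 454 and 402 in Het, 411 and 489 in WT, and 453 and 494 in SmoM2, with a log2 difference of KO from WT of 0.11 (95% interval -0.18 to 0.41, edgeR adjusted p = 0.571). Members of middling level moved. Slc25a10, the dicarboxylate carrier, was at 43.8 and 49 CPM in KO, 50.5 and 54.4 in Het, 22.7 and 29 in WT, and 22.9 and 31.7 in SmoM2. Its log2 differences from WT were 0.85 in KO (SE 0.19, adjusted p = 0.00903; 0.0542 without WT replicate 1) and 1.02 in Het (SE 0.18, adjusted p = 0.00289), and Gm11788 overlaps it on the opposite strand. Slc25a22, a glutamate carrier, was at 58.2 and 46.4 CPM in KO, 62.2 and 65.6 in Het and 35.1 and 33 in WT, and its log2 difference in Het was 0.90 (SE 0.14, adjusted p = 0.00146).

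Slc25a29, a carrier of basic amino acids, was at 26.6 and 20.2 CPM in KO, 33.6 and 35.3 in Het, 13.1 and 14.9 in WT, and 13 and 15.3 in SmoM2. The Het-labelled libraries were 2.45-fold above WT (log2 1.30, SE 0.19, edgeR adjusted p = 0.00114). Slc25a42, a coenzyme A carrier, was high only in Het, with 18 and 17 CPM against 6.42 and 4.79 in KO, 8.95 and 5.23 in WT, and 7.36 and 5.43 in SmoM2. Its log2 difference was -1.64 in KO against Het (SE 0.32, adjusted p = 0.0138) and 1.30 in Het against WT (SE 0.29, adjusted p = 0.00866). The first was not called without KO replicate 1, KO replicate 2 or Het replicate 1 (adjusted p = 0.0509, 0.0735 and 0.101), nor the second without Het replicate 1 or WT replicate 2 (adjusted p = 0.0572 and 0.054). Slc25a16 was lower in Het than in WT, at 9.76 and 9 CPM against 21.1 and 19.7 (log2 -1.12, SE 0.24, adjusted p = 0.00791; 0.0545 without Het replicate 2). Mpc2, a subunit of the mitochondrial pyruvate carrier outside the Slc names, was higher in KO than in WT (log2 0.99, adjusted p = 0.00617).

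Of the 23 metal carriers 0 were higher and 3 lower in KO against WT, and 3 were higher and 2 lower in Het. Slc39a8, the zinc and manganese importer ZIP8, was at 3.99 and 3.05 CPM in KO, 3.61 and 2.72 in Het, 3.82 and 6.64 in WT, and 16.6 and 19.8 in SmoM2. Both SmoM2-labelled libraries stood clear above the other 6, at 3.49-fold the WT level (log2 1.80). Because this gene is a member only through those libraries, the values are given as a description. Stromal markers summed to 683 and 554 CPM in SmoM2 and 521 and 334 in WT. Ureteric markers summed to 59 and 70.2 CPM against 38.2 and 37.7, of which Wnt11 gave 24.1 and 34.2 against 9.79 and 7.52, while Calb1 and Aqp2 were near or at 0 in both groups. The part of these markers in the Slc39a8 values was not tested.

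Slc30a4, the zinc exporter ZnT4, was at 19.5 and 20.2 CPM in KO, 21.8 and 20.7 in Het, 40.6 and 38.8 in WT, and 38.3 and 44.6 in SmoM2. The KO- and Het-labelled libraries lay together at about the same level, below the other 4. The level was 2-fold lower in KO than in WT (SE of the log2 difference 0.16, edgeR adjusted p = 0.00182), and the log2 difference in Het was -0.90 (SE 0.15, adjusted p = 0.00219). Slc39a3, the zinc importer ZIP3, was highest in Het, at 56 and 63.2 CPM against 38.5 and 35.1 in WT (log2 0.69, adjusted p = 0.00979; 0.0948 without Het replicate 2 and 0.0614 without WT replicate 2). The abundant Slc39a7 did not pass, with a log2 difference of KO from WT of -0.03 (95% interval -0.34 to 0.29). Slc30a3, the zinc carrier of synaptic vesicles, was the 1 member higher in KO than in Het, at 6.2 and 6.97 CPM against 2.41 and 2.38 (log2 1.45). It is a member only through the KO-labelled counts, so these values are a description.

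Among carriers of vitamins, choline, heme and fatty acids, 1 of 11 members was higher and 2 were lower in KO against WT, and 4 were higher and 1 lower in Het. Slc52a2, a riboflavin carrier, was at 35 and 29.6 CPM in KO, 42.4 and 33.8 in Het, 21.5 and 21.1 in WT, and 19.3 and 17.3 in SmoM2. Its log2 difference from WT was 0.84 in Het (SE 0.17, edgeR adjusted p = 0.00615; 0.0863 without Het replicate 1). In KO it was 0.60 (SE 0.18, adjusted p = 0.0331), and leaving out any library but SmoM2 replicate 1 or KO replicate 2 took that call away (adjusted p between 0.0504 and 0.182). Slc44a1, a choline carrier, was at 22.8 and 41.1 CPM in KO and 53.2 and 64.7 in WT (log2 -0.88, adjusted p = 0.0148; 0.0857 without KO replicate 1 and 0.0562 without WT replicate 2). Slc27a4, which activates fatty acids on uptake, was higher in Het than in WT (log2 0.80, adjusted p = 0.0156), a call lost without Het replicate 1, Het replicate 2 or WT replicate 2 (adjusted p = 0.106, 0.0582 and 0.109).

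The remaining classes gave few calls. Slc29a2, the equilibrative nucleoside carrier ENT2, was the 1 of 4 nucleoside carriers to differ, at 25.9 and 23.1 CPM in Het against 13.6 and 14.3 in WT (log2 0.82, SE 0.18, edgeR adjusted p = 0.00791; 0.0806 without Het replicate 1). Among 9 carriers of nucleotide sugars and other substrates of the Golgi and endoplasmic reticulum, 1 was higher and 1 lower in KO against WT. Slc37a4, the glucose-6-phosphate carrier, was higher in KO at 31.4 and 40.5 CPM against 23.6 and 21.7 in WT (log2 0.67, adjusted p = 0.0273), and not without KO replicate 2, WT replicate 1 or WT replicate 2 (adjusted p = 0.165, 0.0623 and 0.123). Of the 8 organic ion and peptide carriers, Slc22a21, a carnitine carrier and a member only through its WT-labelled counts, was at 2.81 and 3.74 CPM in Het and 8.11 and 7.3 in WT. The abundant Slc22a17 was at 475 and 334 CPM in KO, 573 and 607 in Het, 408 and 479 in WT, and 426 and 419 in SmoM2, and passed in 0 of the 4 comparisons.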

How the data were processed

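RNA was measured in 8 libraries of sorted progenitors, and groups and replicate numbers came from the labels. Per the file headers, the authors deposited a single table with raw read counts per gene, RPKM values and gene lengths. STAR, featureCounts, Subread and the build mm10 are named in the submitters' processing notes, and their versions, the annotation and the strand setting are not given in the sources used here. Dividing counts by length and the authors' RPKM returned 1 total per library, of which listed counts were 81.1% to 83.3%. All columns of per-sample values belonged to the 8 samples.

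The test on counts was that of edgeR 4.0.16 under R 4.3.3: filterByExpr, trimmed mean of M values scaling, and a quasi-likelihood model of 4 group means over all 8 libraries with 4 residual degrees of freedom (biological coefficient of variation 13.5%). P-values are two-sided and adjusted by Benjamini-Hochberg over 13459 genes, with a threshold of 0.05. SE is the error that the quasi-likelihood statistic implies, and intervals are 95%. With 2 libraries against 2 the smallest exact permutation p is 0.333, so none is given. Alternatives were DESeq2 1.42.0 (with its size factors also in edgeR), other totals and filters, a replicate block, sex, stress and length and GC corrections, and each library left out. The code was tested on simulated data.

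Up to 6 members per comparison and direction were named by size of change among called members whose libraries did not overlap and whose mean log2 CPM was 1 or more, with up to 3 members per class by the 4-group test, the highest RPKM of each class, the list members, and those nearest the threshold. Slc25a3 and Slc6a8 were named after their values were seen. Substrate classes, the members and all lists were chosen with earlier results of these data known. Coordinates and promoters are RefSeq's on GRCm38.p6, and overlapping genes are GENCODE's.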

Additional observations from a re-analysis of the deposited data

How the results depend on the processing

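The number of members called was compared under each alternative. In KO against WT the main count of 42 became 18 with the stress score as a covariate, and leaving out single libraries gave 19 to 43. In Het against WT the 59 became 1 with the stress score, and 29 to 63 with a library left out. In SmoM2 against WT the 1 became 2 with DESeq2, 7 with no filter on low counts, 0 with the stress score and 0 with length and GC trends removed, and 0 to 2 with a library left out. In KO against Het the 19 became 4 with the stress score, 11 with the length trend removed and 8 with length and GC trends removed, and 1 to 24 with a library left out. The cause was not tested; fewer samples leave fewer degrees of freedom. Over the 4 groups the 74 stayed within 1.5 times under every alternative run (52 to 93). With the Het-labelled libraries left out, chosen after seeing the data, KO against WT gave 38 and SmoM2 against WT 1. Deviations of same-numbered libraries correlated at 0.39 between WT and SmoM2 and at -0.06 to 0.1 in the other pairs of groups. In WT and SmoM2 replicate 1 had 4 and 5 Xist counts and replicate 2 had 18238 and 12330. These same-numbered libraries thus also shared sex by Xist, whose part in the correlation was not tested. With the replicate block the counts were 43, 60, 1, 22 and 81, in the order above. Of 76 calls of named members, 13 held under every alternative, 32 (these 13 included) under every one but the stress score, and 0 reversed direction. Removing length and GC trends ended 19 of the 76 calls. Among them in KO against WT were Slc16a3, Slc37a4 and Slc8a2 (edgeR adjusted p = 0.0974, 0.0948 and 0.0615). In KO against Het they included Slc36a1 and Slc16a3 (0.0642 and 0.109). In Het against WT they included Slc8a2, Slc39a3, Slc27a4, Slc29a2 and Slc1a3 (0.147, 0.113, 0.0628, 0.0686 and 0.108). Slc52a2 in KO was also lost with DESeq2 (0.06). The low depth of the KO-labelled libraries limits the members nearest to 200 counts most.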
